A study of Mus musculus with 6 samples.

Results

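Elastic fibres and latent TGF-beta binding proteins (LTBPs) were followed as 10 named genes, Ltbp1, Ltbp2, Ltbp3, Ltbp4, Fbn1, Fbn2, Eln, Fbln5, Efemp2 and Mfap5, whose rows were found in the count table by gene symbol. All 10 were listed among the 14831 genes of the count table, and 9 of them passed the filter on low counts and were tested. RNAseq was carried out on immortalized fibroblasts grown out of the adult mouse pancreas, of mixed strain, cultured to confluence in medium with calf serum. The 6 libraries come from 3 wells labelled WT and 3 labelled Gli2-/-;Gli3-/-, here called labelled KO. According to the study's methods, the fibroblast lines carry floxed Gli2 and Gli3 alleles, and both groups received a GFP adenovirus, with a dsRed lentivirus for the controls and a Cre adenovirus for the KO cells, before infected cells were sorted and screened for recombination with qPCR and western blots. The labels do not say whether the wells of a group came from more than 1 line or clone, so the p-values measure only the spread between wells.

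The library labels were first set beside the targeted genes. Gli2 had 809, 944 and 868 counts in WT-labelled libraries and 1932, 2316 and 1926 in KO-labelled ones, a log2 fold change of 1.05 ± 0.04 (SE, n = 3 per group, adjusted p = 8.01e-10, edgeR). Gli3 had 392, 416 and 398 counts in WT-labelled libraries and 1434, 1637 and 1404 in KO-labelled ones (log2 fold change 1.71 ± 0.05, adjusted p = 2.10e-11, edgeR). Both genes were thus higher in the group labelled as their knockout, and whole-gene counts do not separate the exons that Cre removes from the rest of the transcript. Ptch1, a hedgehog receptor gene that is itself induced by the pathway, was 235 ± 10.3 CPM (SD) in WT-labelled libraries and 81.8 ± 4.61 CPM in KO-labelled ones. Each direction below is therefore given by the label of the library and not by a genotype.

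The total per library ranged from 31728420 to 41035931 counts, so that 3 counts equal 0.0720 to 0.0957 CPM (CPM being counts relative to the library total, scaled by the effective library size). Of the 10 fibroblast markers, 9 were listed, and their summed level was 44824 to 47238 CPM in WT-labelled libraries and 36791 to 38540 CPM in KO-labelled ones. Of the 8 tested, Col3a1, Pdgfra, Pdgfrb and Dcn were lower and S100a4 was higher in KO-labelled libraries. Col1a1, Col1a2 and Vim were not called. Thy1, not tested, had 4, 1 and 0 counts in WT-labelled libraries and 19, 15 and 9 in KO-labelled ones, and Pdpn was not listed. The leukocyte genes Ptprc, Adgre1 and Itgam and the epithelial genes Epcam, Krt18 and Krt19 were not listed. The other 3 leukocyte markers, Lyz2, Cd68 and Csf1r, summed to 39.5 to 45.5 CPM in WT-labelled libraries and 38.4 to 40.1 CPM in KO-labelled ones, most of it from Lyz2. All 4 mesothelial markers (Msln, Upk3b, Wt1 and Lrrn4) were higher in KO-labelled libraries, where their sum was 267 CPM in each library against 21.5 to 24.4 CPM in WT-labelled ones. Summed epithelial markers, 4 of 7 listed, were 29.5 to 30.4 CPM in KO-labelled libraries and 12.8 to 13.8 CPM in WT-labelled ones. Most of that difference came from Krt7, at 4.38 and 23.1 CPM in WT-labelled and KO-labelled libraries, while Sox9 differed the other way, at 8.51 and 6.03 CPM. Of 5 tested smooth muscle and pericyte markers, Mcam and Cnn1 were higher in KO-labelled libraries, by 5.73-fold and 1.65-fold. Acta2 (1893 and 1903 CPM in WT-labelled and KO-labelled libraries), Tagln and Notch3 were not called. This list summed to 1865 to 2039 CPM in WT-labelled libraries and 1944 to 2028 CPM in KO-labelled ones, most of it from Acta2. Some of these markers differ between the same libraries as the results that follow, and their part in them was not tested. In bulk RNA, fewer cells of one type and less RNA per cell cannot be told apart.

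Elastic fibres let tissues stretch and recoil. They consist of a core of crosslinked elastin laid on a scaffold of microfibrils, which are built from fibrillins and decorated with accessory glycoproteins such as the microfibril-associated proteins. Fibulins guide elastin onto that scaffold, and lysyl oxidases crosslink it. LTBPs are relatives of the fibrillins that attach to the matrix, and several of them tether the latent TGF-beta complex there until proteases or integrins release the growth factor. In the pancreas, fibroblasts are a main source of this matrix, which expands with fibrosis and around tumors.

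At the level of the whole group of genes, transcripts of the elastic fibre and LTBP genes summed to 4121, 4065 and 4156 CPM in WT-labelled libraries and to 5160, 5169 and 5271 CPM in KO-labelled ones. Most of that sum came from Ltbp1 and Ltbp3. Per kilobase of exon, which allows levels to be compared between genes, Ltbp1 was the highest in WT-labelled libraries at 173 CPM per kb, followed by Ltbp3 at 132, Efemp2 at 82.0, Fbln5 at 41.2, Fbn1 at 36.0 and Ltbp4 at 4.78 CPM per kb. The remaining genes lay below 1 CPM per kb, with Ltbp2 at 0.699, Mfap5 at 0.414, Fbn2 at 0.135 and Eln at 0.00900 CPM per kb. In the libraries labelled KO the order began with Ltbp1 at 209, Ltbp3 at 136, Efemp2 at 95.1 and Fbln5 at 77.9 CPM per kb, after which Ltbp4, at 57.8, stood above Fbn1, at 36.9 CPM per kb. Mfap5 at 2.19 CPM per kb then stood above Ltbp2 at 0.256, and Eln at 0.0395 above Fbn2 at 0.0178 CPM per kb. Within each group, no gene's range over the 3 libraries overlapped that of its neighbour in the order. Ltbp1 and Ltbp3 were at percentiles 98.8 and 98.2 of all tested genes by level per kb, whereas Ltbp2 was at percentile 14.6.

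**Figure D1:**
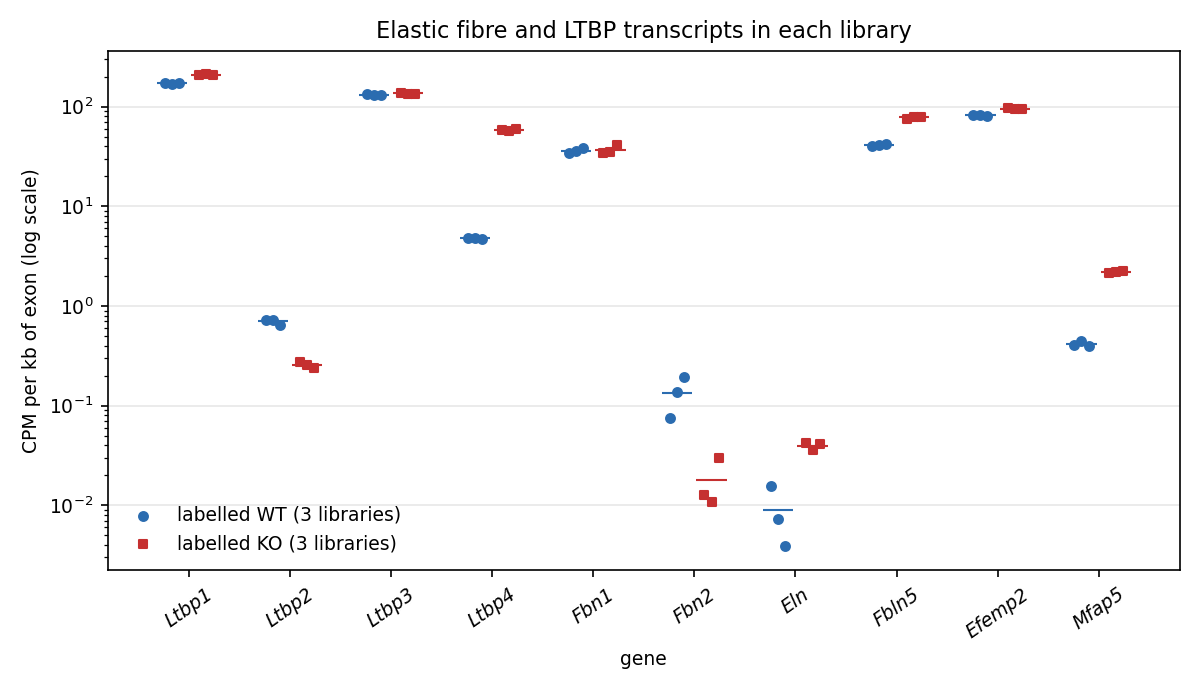
Level of each gene in CPM per kb of exon, on a log scale, with 1 point per library (circles, 3 labelled WT; squares, 3 labelled KO) and a line at the group mean. Ltbp4 moved from 4.78 to 57.8 CPM per kb and Mfap5 from 0.414 to 2.19, while Fbn1 and Ltbp3 overlap between the groups, and Eln and Fbn2 are near the lower end of the scale in all 6 libraries.

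Of the 9 tested genes, 5 were differentially expressed at an adjusted p below 0.05 (edgeR quasi-likelihood test, Benjamini-Hochberg over 14289 genes) and a change of at least 1.5-fold. Ltbp4, Mfap5 and Fbln5 were higher, and Ltbp2 and Fbn2 lower, in KO-labelled libraries. Across all tested genes, 17.7% met this call, 11.6% as higher and 6.1% as lower. At any fold, 7 of the 9 had an adjusted p below 0.05, against 58.7% of all tested genes, and 7 of the 9 had no overlap between the groups, against 64.2%. The median log2 fold change of the 9 was 0.21 and the median of its absolute value was 0.92, compared with 0.00197 and 0.219 over all tested genes. Fbn2 passed the filter on low counts through the libraries labelled WT, so its presence among the tested genes depends on its being higher there.

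**Figure D2:**
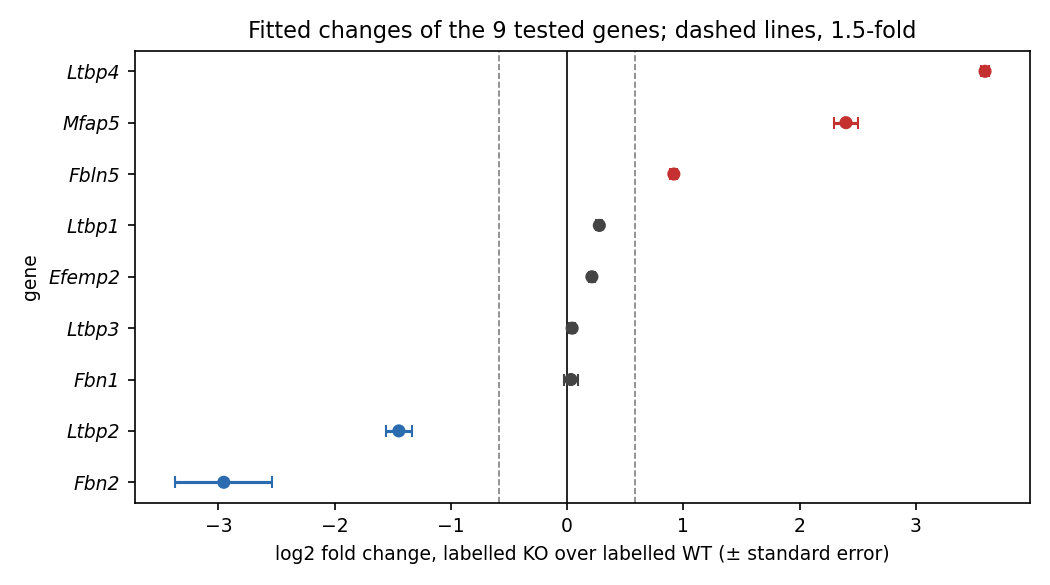
Fitted log2 fold change of the libraries labelled KO over those labelled WT (x axis) for the 9 tested genes (y axis), with bars of 1 standard error and dashed lines at 1.5-fold. Ltbp4 (3.60), Mfap5 (2.40) and Fbln5 (0.92) lie beyond the right line and Ltbp2 (-1.45) and Fbn2 (-2.95) beyond the left, with the other 4 genes between the lines.

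Promoters of 3 of the 5 genes that differed, Ltbp4, Fbln5 and Ltbp2, are shown because they hold annotated start sites of genes that moved together or apart. Mfap5 had no entry in the promoter table and Fbn2 was not used here. RefSeq promoters on GRCm38.p6, from 250 bases before the start site to 50 bases from it, were matched by symbol for 7 of the 10 genes, with 13 promoters in all. Each is written 5′ to 3′ on the strand of the gene, here the minus strand for all 4, and capitals mark every match to a GC box (GGGCGG, on either strand). The Ltbp4 promoters at chr7:27337563-27337862, at the 5′ end of the gene, and chr7:27333614-27333913, inside it, are followed by those of Fbln5 at chr12:101819070-101819369 and Ltbp2 at chr12:84876442-84876741.
Ltbp4, upstream promoter: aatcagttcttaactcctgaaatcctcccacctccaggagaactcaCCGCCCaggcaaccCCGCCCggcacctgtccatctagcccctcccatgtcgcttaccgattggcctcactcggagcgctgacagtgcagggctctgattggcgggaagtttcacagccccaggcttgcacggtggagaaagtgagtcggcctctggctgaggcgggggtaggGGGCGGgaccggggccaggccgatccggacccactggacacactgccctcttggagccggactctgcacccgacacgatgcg
Ltbp4, internal promoter: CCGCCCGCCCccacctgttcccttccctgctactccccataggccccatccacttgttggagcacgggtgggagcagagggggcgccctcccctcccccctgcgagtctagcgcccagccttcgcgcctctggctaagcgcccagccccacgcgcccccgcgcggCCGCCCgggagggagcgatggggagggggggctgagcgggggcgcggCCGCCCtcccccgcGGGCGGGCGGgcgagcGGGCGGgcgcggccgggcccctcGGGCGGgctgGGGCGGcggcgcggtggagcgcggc
Fbln5: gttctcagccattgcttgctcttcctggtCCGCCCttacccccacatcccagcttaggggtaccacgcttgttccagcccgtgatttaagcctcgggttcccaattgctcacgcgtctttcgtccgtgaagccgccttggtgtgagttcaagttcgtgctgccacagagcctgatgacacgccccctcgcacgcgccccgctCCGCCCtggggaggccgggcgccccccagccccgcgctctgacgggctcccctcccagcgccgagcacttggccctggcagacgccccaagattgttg
Ltbp2: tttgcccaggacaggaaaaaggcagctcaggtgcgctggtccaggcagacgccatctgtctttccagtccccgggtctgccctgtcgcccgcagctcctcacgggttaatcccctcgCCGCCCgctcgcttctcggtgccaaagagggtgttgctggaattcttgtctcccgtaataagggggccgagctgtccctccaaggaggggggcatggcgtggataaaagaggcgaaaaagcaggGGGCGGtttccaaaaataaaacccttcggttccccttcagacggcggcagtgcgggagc

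The upstream Ltbp4 promoter held 3 GC boxes at a GC content of 64.3%, and the internal one held 9 at 81.3%, compared with a median GC content of 52.7% over all 32851 promoters in the table. Another Ltbp4 promoter, which overlaps the internal one and is not shown, held 7. The printed Fbln5 and Ltbp2 promoters held 2 each, and the other Fbln5 promoter, not shown, held 0 at a GC content of 48.7%. A GC box was present in 35.7% of all promoters. None of the 13 promoters held the GLI consensus (GACCACCCA), the SMAD palindrome (GTCTAGAC), a TATA box (TATAAA) or a TEAD site (GGAATG) on either strand. These letters were found in 0.253%, 0.213%, 13.6% and 14.7% of all promoters, and their absence here says only that they do not occur in these windows. The counts do not separate transcripts of the Ltbp4 promoters.

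Among the LTBPs, Ltbp4 differed the most. LTBP4 binds latent TGF-beta and also takes part in laying down elastic fibres together with fibulins. The gene (chr7:27305136-27337692, minus strand, GRCm38, GENCODE M21) had 976, 1047 and 966 counts in WT-labelled libraries and 13238, 15222 and 12596 in KO-labelled ones. Every library labelled KO was thus far above every library labelled WT, with means of 374 ± 8.15 CPM and 30.9 ± 0.547 CPM (SD, n = 3 each). Ltbp4 was 12.1-fold higher (log2 fold change 3.60 ± 0.03, SE, adjusted p = 3.11e-15, edgeR). Of the 18 other tested genes within 250 kb of Ltbp4, 0 were differentially expressed by edgeR, against 17.7% of all tested genes. DESeq2, limma-voom and limma on the deposited log2 values called 0 as well. An unadjusted p below 0.05 (edgeR) was reached by 9 of the 18. The share of 58.7% of all tested genes is for an adjusted p below 0.05, so it does not match that count. The median log2 fold change of the 18 was 0.11.

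Ltbp2 went the other way. LTBP2 is a microfibril component of this family that, unlike its relatives, does not bind latent TGF-beta. Ltbp2 (chr12:84783212-84876532, minus strand) had 186, 198 and 170 counts in WT-labelled libraries and 79, 87 and 65 in KO-labelled ones. Its level was low in both groups, at 5.72 ± 0.346 and 2.10 ± 0.131 CPM, and fell by 1.45 on the log2 scale (SE 0.11, adjusted p = 1.96e-07, edgeR), or 2.73-fold. The antisense gene D030025P21Rik, not listed in the table, shares 9.34% of the exon bases of Ltbp2 on the opposite strand, and the sources used here do not state whether counting used strand.

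The 2 most abundant LTBPs changed little. LTBP1 is the best studied carrier of latent TGF-beta in the matrix. Ltbp1 (chr17:75005568-75392512, plus strand) had 58267, 60710 and 59612 counts in WT-labelled libraries and 78316, 94015 and 74177 in KO-labelled ones, or 1846 ± 29.6 and 2238 ± 23.4 CPM. The groups did not overlap (log2 fold change 0.28 ± 0.03, adjusted p = 1.45e-06, edgeR), but the difference of 1.21-fold was below the fold limit. Ltbp3 (chr19:5740904-5758532, plus strand), which encodes another carrier of latent TGF-beta, known for its part in bone and teeth, had 38154, 39458 and 37971 counts in WT-labelled libraries and 44542, 50456 and 40485 in KO-labelled ones. Its levels of 1195 ± 20.3 and 1232 ± 24.0 CPM overlapped between the groups (log2 fold change 0.04 ± 0.03, adjusted p = 0.200, edgeR). That adjusted p was 0.00956 with upper-quartile factors and between that and 0.551 over the alternatives (edgeR, DESeq2 and limma), with a change under the fold limit in each.

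The mix of LTBP transcripts was then compared within each library, which does not depend on the scaling between libraries. With counts taken per kb of exon, Ltbp4 made up 1.54%, 1.59% and 1.5% of LTBP transcripts in WT-labelled libraries and 14.3%, 14.1% and 14.6% in KO-labelled ones. The mean share of Ltbp4 was 12.8 percentage points higher in KO-labelled libraries, at 14.3% ± 0.253 against 1.54% ± 0.0409 (SD, n = 3 each, two-sided exact permutation p = 0.1). Ltbp3 went from 42.5% ± 0.329 to 33.7% ± 0.591, Ltbp1 from 55.7% ± 0.367 to 51.9% ± 0.670 and Ltbp2 from 0.226% ± 0.0146 to 0.0635% ± 0.00404, each with an exact permutation p of 0.1. None of these shares overlapped between the groups, and 0.1 is the smallest two-sided p that 3 against 3 libraries can give, so no share could pass a threshold of 0.05. The shares of a library add up to the whole, so they are not separate results. In CPM, Ltbp1 (1846 and 2238) and Ltbp3 (1195 and 1232) were not lower in KO-labelled than in WT-labelled libraries.

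**Figure D3:**
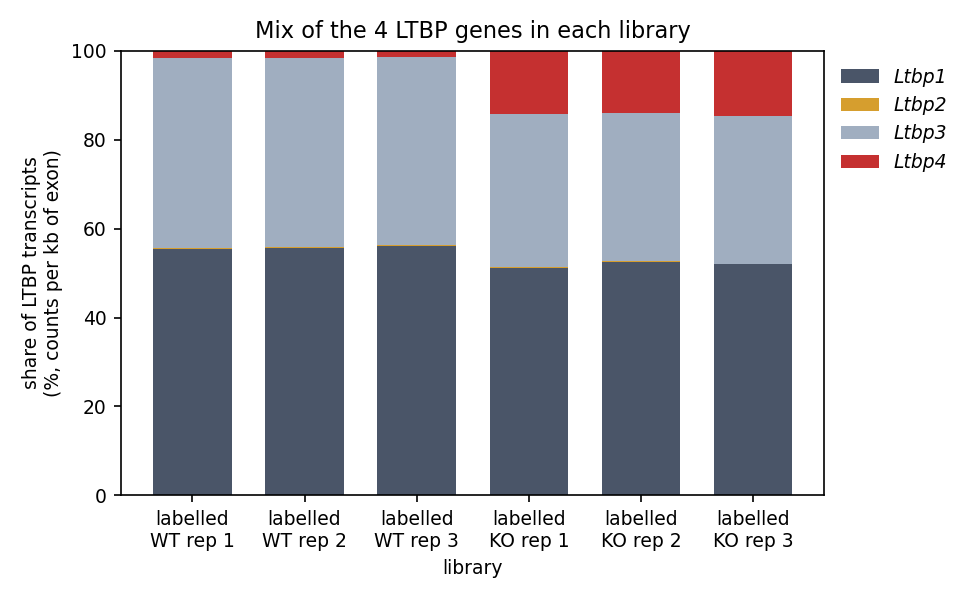
Share of each LTBP gene among LTBP transcripts (y axis, percent, counts per kb of exon) in each of the 6 libraries (x axis, bars stacked from 0 to 100). Ltbp4 takes 1.5% to 1.59% in the 3 libraries labelled WT and 14.1% to 14.6% in the 3 labelled KO, Ltbp1 and Ltbp3 take most of the rest, and Ltbp2 is too thin to see.

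The ligands that LTBPs carry were low beside their carriers. Tgfb3 had 130 ± 1.28 CPM in WT-labelled libraries and 160 ± 4.93 in KO-labelled ones (log2 fold change 0.30 ± 0.03, adjusted p = 4.12e-06, edgeR). Tgfb1 had 24.1 ± 1.02 and 34.1 ± 1.22 CPM (0.50 ± 0.05, adjusted p = 1.70e-06), and Tgfb2 had 56.0 ± 0.611 and 44.0 ± 1.05 CPM (-0.35 ± 0.04, adjusted p = 3.33e-06). Tgfb2 thus differed in the opposite direction to Tgfb1 and Tgfb3, and none of the 3 reached 1.5-fold. Per kb of exon, the summed level of Ltbp1, Ltbp3 and Ltbp4 was 5.86, 5.77 and 5.96 times that of the ligand genes in WT-labelled libraries and 6.57, 6.67 and 6.40 times in KO-labelled ones.

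Among the microfibril genes, Fbn2 passed the call and Fbn1 did not. Fibrillin-1 is the main structural protein of adult microfibrils, and its loss of function underlies Marfan syndrome. Fbn1 (chr2:125300594-125507993, minus strand) had 12919, 14517 and 14843 counts in WT-labelled libraries and 14814, 17643 and 16501 in KO-labelled ones. At 437 ± 26.5 and 447 ± 45.7 CPM, the groups overlapped (log2 fold change 0.03 ± 0.06, adjusted p = 0.666, edgeR). Gm9913 lies on the opposite strand and shares 20.1% of the exon bases of Fbn1, and reads there may have been assigned to either gene or to neither.

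Fibrillin-2 is used mainly in developing tissue. Fbn2 (chr18:58008623-58210487, minus strand) was low in WT-labelled libraries, with 31, 61 and 81 counts. It was near the detection limit in KO-labelled ones, with 6, 6 and 13. The libraries labelled WT were spread widely, at 1.78 ± 0.775 CPM, yet each lay above the libraries labelled KO, at 0.236 ± 0.137 CPM. Fbn2 fell by 2.95 on the log2 scale (SE 0.42, adjusted p = 5.25e-05, edgeR), or 7.74-fold. Its share of fibrillin transcripts was 0.367% ± 0.140 in WT-labelled libraries and 0.0469% ± 0.0222 in KO-labelled ones (two-sided exact permutation p = 0.1), so that Fbn1 supplied nearly all fibrillin RNA in both groups.

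MFAP5, also called MAGP-2, is a small glycoprotein that binds fibrillins on the microfibril surface. Mfap5 (chr6:122505845-122529290, plus strand) had 46, 53 and 45 counts in WT-labelled libraries and 275, 328 and 263 in KO-labelled ones. The 2 groups were far apart and tight, at 1.49 ± 0.0879 and 7.87 ± 0.10 CPM (log2 fold change 2.40 ± 0.10, adjusted p = 9.34e-10, edgeR), a 5.28-fold difference. Even so, at 2.19 CPM per kb in KO-labelled libraries, it was well below Fbn1, at 36.9 CPM per kb.

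Elastin itself was barely detected. Eln (chr5:134702593-134747323, minus strand), which encodes the soluble precursor of the elastic core, had 4, 2 and 1 counts in WT-labelled libraries and 12, 12 and 11 in KO-labelled ones. All 3 libraries labelled KO were above those labelled WT, but Eln did not pass the filter on low counts, and in WT-labelled libraries it was at about the level of 3 counts. Without that filter, edgeR gave a log2 fold change of 2.08 ± 0.49 with an adjusted p of 0.00264. At this depth the genes of the elastic fibre scaffold were therefore measured in cells with little elastin RNA.

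The fibulins that assemble elastic fibres were both well expressed, and only 1 passed the call. Fibulin-5 brings elastin to microfibrils and binds the crosslinking enzyme LOXL1. Fbln5 (chr12:101746565-101819055, minus strand) had 8728, 9605 and 9244 counts in WT-labelled libraries and 18539, 22586 and 18173 in KO-labelled ones, or 285 ± 5.75 and 539 ± 13.8 CPM. The groups did not overlap, and the difference was 1.89-fold (log2 fold change 0.92 ± 0.03, adjusted p = 7.97e-11, edgeR). Fibulin-4, encoded by Efemp2, is required for elastic fibres and works with lysyl oxidase. Efemp2 (chr19:5473954-5482517, plus strand) had 9839, 10488 and 9724 counts in WT-labelled libraries and 12883, 15061 and 11723 in KO-labelled ones, or 311 ± 5.18 and 360 ± 4.49 CPM. These groups did not overlap either, but the log2 fold change of 0.21 ± 0.03 (adjusted p = 2.91e-05, edgeR), or 1.16-fold, was under the fold limit. The ratio of Fbln5 to Efemp2 per kb of exon was 0.486, 0.502 and 0.521 in WT-labelled libraries and 0.789, 0.822 and 0.850 in KO-labelled ones, again without overlap. Exons of Mus81 on the opposite strand cover 4.57% of the exon bases of Efemp2.

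The other genes of the pathway were taken from lists chosen with earlier results of these data known. The lists held 96 genes, of which 82 were listed and 80 tested. Of these, 15 were higher and 16 lower in KO-labelled libraries, against the background of 11.6% and 6.1%, and their median log2 fold change was -0.10. Among those called, Thsd4, Adamtsl2, Itgb8, Mmp9, Gli1 and Hhip passed the filter on low counts through the group where they were higher. Their presence among the tested genes thus depends on that group. With at least 10 counts required in every library, 25 pathway genes and 1926 genes overall were called. In the list of other microfibril and elastic fibre proteins, 6 of 20 tested genes were higher and 4 lower. Adamtsl3, a secreted relative of the ADAMTS proteases without protease activity, had 107, 119 and 111 counts in WT-labelled libraries and 2512, 3092 and 2571 in KO-labelled ones (log2 fold change 4.41 ± 0.06, adjusted p = 2.64e-14, edgeR). Adamtsl4, whose product binds fibrillin-1, and Adamtsl5 were higher as well, by 0.92 ± 0.05 and 0.83 ± 0.07 on the log2 scale, and Emilin2, Thsd4 and Adamtsl2 completed the genes that were higher. The lower genes were Dcn, a proteoglycan that binds TGF-beta (-1.55 ± 0.03), Tgm2, a crosslinking transglutaminase (-1.29 ± 0.04), Vcan, a large proteoglycan (-1.10 ± 0.05), and Adamts10. Dcn, also one of the fibroblast markers, went from 2643 ± 117 to 905 ± 6.95 CPM.

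All 5 lysyl oxidases were tested, and 1 was higher and 2 were lower, against 11.6% and 6.1% of all tested genes. Lox, the most abundant, was 823 ± 47.8 CPM in WT-labelled libraries and 1044 ± 12.1 CPM in KO-labelled ones. Its log2 fold change of 0.34 ± 0.04 (adjusted p = 6.27e-06, edgeR) was under the fold limit, as was that of Loxl3 (-0.14 ± 0.03). The 5 genes summed to 1250 to 1374 CPM in WT-labelled libraries and 1379 to 1408 CPM in KO-labelled ones. Loxl1, the partner of fibulin-5 in elastin crosslinking, was 55.8 ± 0.996 CPM in WT-labelled libraries and 25.0 ± 0.959 CPM in KO-labelled ones (log2 fold change -1.16 ± 0.04, adjusted p = 1.49e-10, edgeR). Loxl1 and Fbln5 thus differed in opposite directions. Loxl4 was higher (1.26 ± 0.07), and Loxl2 was lower at the edge of the fold limit (-0.60 ± 0.03), so that it missed the limit under total-count scaling.

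Among 15 tested genes for TGF-beta ligands, latency and activation, 2 were higher and 3 lower, against 11.6% and 6.1% of all tested genes. Itgb8, which pairs with the alpha-v integrin chain to release TGF-beta from its latent complex, had 1274, 1387 and 1436 counts in WT-labelled libraries and 7, 14 and 10 in KO-labelled ones (log2 fold change -7.21 ± 0.11, adjusted p = 7.79e-14, edgeR). Itgav, the alpha-v chain, was higher by 1.25 ± 0.03, from 270 ± 0.914 to 641 ± 13.5 CPM. Tll1, a tolloid-like matrix protease, was higher by 3.07 ± 0.17, whereas Itgb3 was lower (-0.80 ± 0.05), and Lrrc32, which holds latent TGF-beta at the cell surface, was lower near the fold limit (-0.60 ± 0.12).

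None of the 12 genes for TGF-beta receptors and SMADs, the intracellular mediators, passed the call with edgeR, against 17.7% of all tested genes. By edgeR, 9 had an unadjusted p below 0.05. An adjusted p below 0.05 was reached by 7, against 58.7% of all tested genes. Tgfbr2 (-0.43 ± 0.03), Smad2 (-0.41 ± 0.04), Smad4 (-0.40 ± 0.04), Smurf1 (-0.21 ± 0.03) and Smad3 (-0.12 ± 0.03) were lower. Smad6 (0.47 ± 0.05) and Smad7 (0.28 ± 0.04) were higher. Of the 12, DESeq2 called 0, limma-voom 1 and limma on the deposited log2 values 0. Of 12 TGF-beta responsive genes, counted without Ltbp2, 3 were higher and 0 lower by edgeR, against 11.6% and 6.1% of all tested genes. By edgeR, 9 of these had an unadjusted p below 0.05 and 8 an adjusted p below 0.05. DESeq2 called 3 and both limma fits 4. The 3 called by edgeR were Tgfbi, a secreted matrix protein (2.38 ± 0.07), Id1, a transcriptional inhibitor that also responds to BMP (1.11 ± 0.06), and Ccn2, a matricellular protein (1.11 ± 0.15). Ccn2 was uneven among the libraries labelled WT, at 284, 195 and 156 CPM, with 460, 480 and 432 CPM in KO-labelled ones. The median log2 fold change of the list was 0.05.

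Among 11 tested genes for elastin-degrading proteases and the elastin receptor, 1 was higher and 3 were lower, against 11.6% and 6.1% of all tested genes. Cela1, an elastase, was higher (0.87 ± 0.08), and Mmp3, a matrix metalloproteinase (-0.98 ± 0.10), Neu1, the sialidase of the elastin receptor complex (-0.74 ± 0.04), and Mmp9, at 0.569 and 0.232 CPM, were lower. Of 7 tested hedgehog pathway genes, Gli2 and Gli3 were higher and Ptch1, Smo, Gli1 and Hhip lower. Gli1 had 40, 50 and 37 counts in WT-labelled libraries and 4, 10 and 13 in KO-labelled ones. Hhip had 39, 42 and 44 counts in WT-labelled libraries and 0 in each of those labelled KO.

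**Figure D4:**
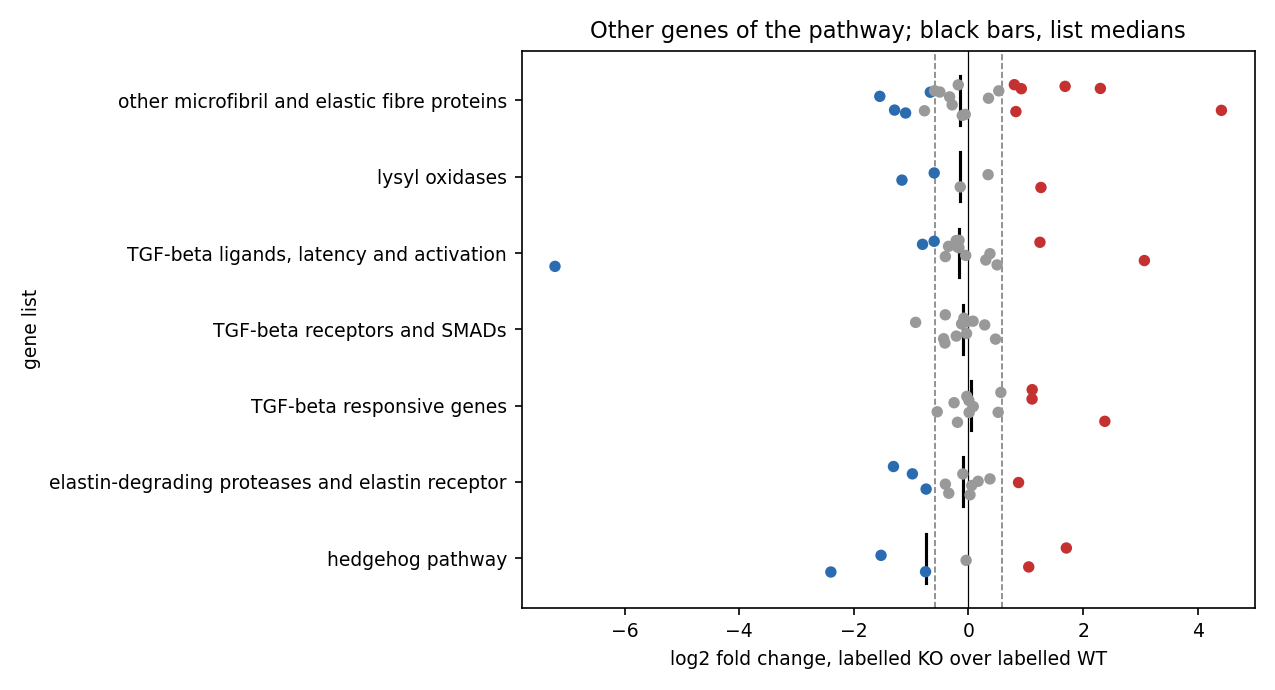
Fitted log2 fold changes (x axis) of the other pathway genes by list (y axis), with 1 point per tested gene (red, higher; blue, lower; grey, not called), black bars at list medians and dashed lines at 1.5-fold. Itgb8 lies far to the left at -7.21 and Adamtsl3 to the right at 4.41, list medians lie near 0 except for the hedgehog genes (-0.75), and Hhip, at 0 counts in all libraries labelled KO, is left out of the points but not of the median.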

How the data were processed

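Total RNA of 6 wells was made into polyadenylated RNA libraries. The authors deposited raw counts of reads per gene, and log2 values of CPM made from them with limma. The submitters' processing notes name STAR 2.7.2b, featureCounts and GRCm38.p6, and whether counting used strand is not given in the sources used here. Groups were taken from the genotype labels. The 10 genes, the gene lists and the tests were chosen with earlier results of these data known. Named genes are the 10 themselves, Gli2, Gli3, the TGF-beta ligands and up to 3 genes per list and direction with the largest change among called genes whose higher group had 100 counts or more per library. Genes named beside them complete small counts or are markers, named after their values were seen. Counts were tested with edgeR 4.0.16 (R 4.3.3) with TMM factors, filterByExpr and the quasi-likelihood test, which was also tested on simulated data. DESeq2 1.42.0 and limma 3.58.1 were run as alternatives. Of 14831 identifiers, 14822 matched GENCODE M21 without the version. Counts per kb use its merged exon lengths. Libraries of a group differed by more than sampling noise (chi-square per degree of freedom 2.5 to 7.74). Motifs were searched for in RefSeq promoters.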

Additional observations from a re-analysis of the deposited data

How the results depend on the processing

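No paired analysis was possible because the labels give no replicate numbers. The replicate numbers used here follow the order of the libraries within each group. The direction of Ltbp1, Ltbp2, Ltbp4, Fbn2, Fbln5, Efemp2 and Mfap5 held under other scalings, filters, tools and with each library left out. With 1 library left out, Fbn1 ranged from -0.052 (without KO replicate 3) to 0.078 (without WT replicate 3) and was also negative, at -0.01, without WT replicate 1; its highest value over all alternatives was 0.09, with upper-quartile factors. Between 4 and 6 of the 10 genes were called: 6 where Eln became tested and 4 where Fbn2 was not tested (at least 10 counts in every library) or Fbln5 fell under a 2-fold limit. The 2-fold limit left 20 of 31 pathway genes and 1456 of 2531 genes overall. Where Eln passed the filter with 1 library left out, it did so through the libraries labelled KO, in which it was higher. Loxl2 and Lrrc32 fell under 1.5-fold with total counts and upper-quartile factors, Loxl2 also without WT replicate 1 or KO replicate 3 and Lrrc32 without WT replicate 3 or KO replicate 3. With raw counts in place of counts per kb, the LTBP shares differed by -1.78 points for Ltbp1, -0.132 for Ltbp2, -6.80 for Ltbp3 and 8.71 for Ltbp4. Fbn2 and Eln were limited by depth.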
